A study of Mus musculus with 9 samples.

Results

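Integrin and laminin subunits are the genes described here, chosen as every row of the deposited count table whose symbol is that of an integrin α or β chain or a laminin α, β or γ chain. The rule found 37 of 55401 genes: 18 integrin α, 8 integrin β, 5 laminin α, 3 laminin β and 3 laminin γ genes, and it used no measured value. They were followed in whole livers of 9 female mice in 3 groups of 3. Healthy livers (HL) came from wild-type mice that received nothing. Untreated HCC livers (LC_AC) carried hepatocellular carcinoma (HCC) and a blank AAV8 vector, an adeno-associated virus that takes genes into hepatocytes, and miR-22-treated HCC livers (LC_M22) carried the same tumors and AAV8 with miR-22. Mice were obtained at 6 weeks of age. For both tumor groups the labels list Sleeping Beauty plasmids for HA-tagged myristoylated AKT and N90-β-catenin, each under an EF1α promoter, for Nras-v12 under the Caggs promoter, and for the SB11 transposase under a CMV promoter, pushed into the liver through the tail vein, whereas the series is described as RAS/AKT-induced. The virus followed 1 week after the plasmids, and livers were taken 5 weeks after the plasmids, which is 4 weeks after the virus. No age at collection is given for the healthy livers, which received neither plasmids nor vector, so that tumor, injection and blank vector cannot be told apart in a comparison with them. One field of the labels names the strain C57BL/6 and another FVB/N. Whole liver was sequenced, so a gene's level mixes tumor cells, remaining hepatocytes, vessels, stroma and blood cells, and fewer cells of a type cannot be told apart from less RNA per cell.

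Integrins are receptors made of 1 α and 1 β chain that hold cells to the matrix around them, or to other cells, and couple that contact to the cytoskeleton and to signaling. Laminins are cross-shaped trimers of 1 α, 1 β and 1 γ chain and form the base layer of basement membranes, on which epithelial and endothelial cells sit. Healthy liver sinusoids lack a continuous basement membrane, and laminin is then found mainly around bile ducts and larger vessels. Which α chain is made decides what an integrin binds: α3, α6 and α7 bind laminin, α1, α2, α10 and α11 bind collagen, α5, α8 and αv bind proteins with an RGD motif such as fibronectin and vitronectin, and αL, αM, αX, αD and αE are made by leukocytes.

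The microRNA delivered by the virus is shown first because its seed, the bases that pair with target transcripts, can be read against every member. The mature miR-22-3p sequence of RefSeq (GRCm38.p6, chr11:75463772-75463793, plus strand), with the seed in capitals, is given on the next line.
mmu-miR-22-3p: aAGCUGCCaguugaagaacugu
A match was counted where the 3′ UTR of a gene's canonical transcript (GENCODE M39, GRCm39) held GGCAGCT, which pairs with bases 2 to 8, or GCAGCTA, which pairs with bases 2 to 7 and ends in A; only the transcribed strand was read, and letters that hold both were counted once. Of the 37 members, 10 (27.0%) had such a match, against 22.01% of 13550 tested protein-coding genes with a 3′ UTR. The matches of Itga5 and of Lamc1, 1 and 2 in number, are printed with that of Itgb8 because, of the members with a match, these had the lowest log2 fold changes with miR-22, and that of Itga1 because it pairs with the whole seed and is followed by A. Capitals mark the bases that pair with the seed.
Itga5 (chr15:103253271-103253292, minus strand): aaccaaaggaagtctGCAGCTa
Lamc1, first (chr1:153096552-153096573, minus strand): ttcccaaatcctcaGGCAGCTg
Lamc1, second (chr1:153096528-153096549, minus strand): aaaaagtctggatgGGCAGCTc
Itgb8 (chr12:119122672-119122693, minus strand): tgttcaactctttaGGCAGCTt
Itga1 (chr13:115093932-115093953, minus strand): caaagccactttcaGGCAGCTa
The other members with a match were Itga2b and Lamb3 with 2 each and Itga4, Itga8, Itgal and Lama3 with 1 each. No match was found in the 3′ UTR of Itga3, Itga6, Itgav, Itgb4, Lama5 or Lamb2, and that says only that these letters are not in those windows. Long 3′ UTRs hold a match more often: of tested genes whose 3′ UTR was within 25% of the same length, 15.2% had one for Itga5, 31.8% for Lamc1, 48.7% for Itgb8 and 58.9% for Itga1. A match is a description of sequence and not of binding.

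Libraries held 16664659 to 23908392 counts, so a member with 10 normalised counts rests on about as many reads. Counts of the oncogenes Akt1 and Nras separated the labelled groups. Akt1, whose counts take in any reads from the AKT plasmid that map to it, ranged from 2002 to 2105 normalised counts in the healthy group, 22700.4 to 32454 in untreated HCC and 13027 to 21424 with miR-22. Nras was at 520.8 to 575, 1228 to 1499 and 1034 to 1073 in the same order. These libraries do not measure mature miR-22, and its host transcript Mir22hg was at 1096 to 1375, 257 to 399 and 542 to 634 normalised counts in the same order. Among treated livers, liver 4 lay nearest to untreated HCC on the first principal component (43.5 against 20.7 and 12.8, with untreated HCC at 62.1 to 85.2), and it was the highest treated liver for 18 of 35 members tested (51.4%) and for 36.7% of all genes tested. The labels number the livers of a group and say no more of their source, so the p-values measure the spread between these livers.

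**Figure D1:**
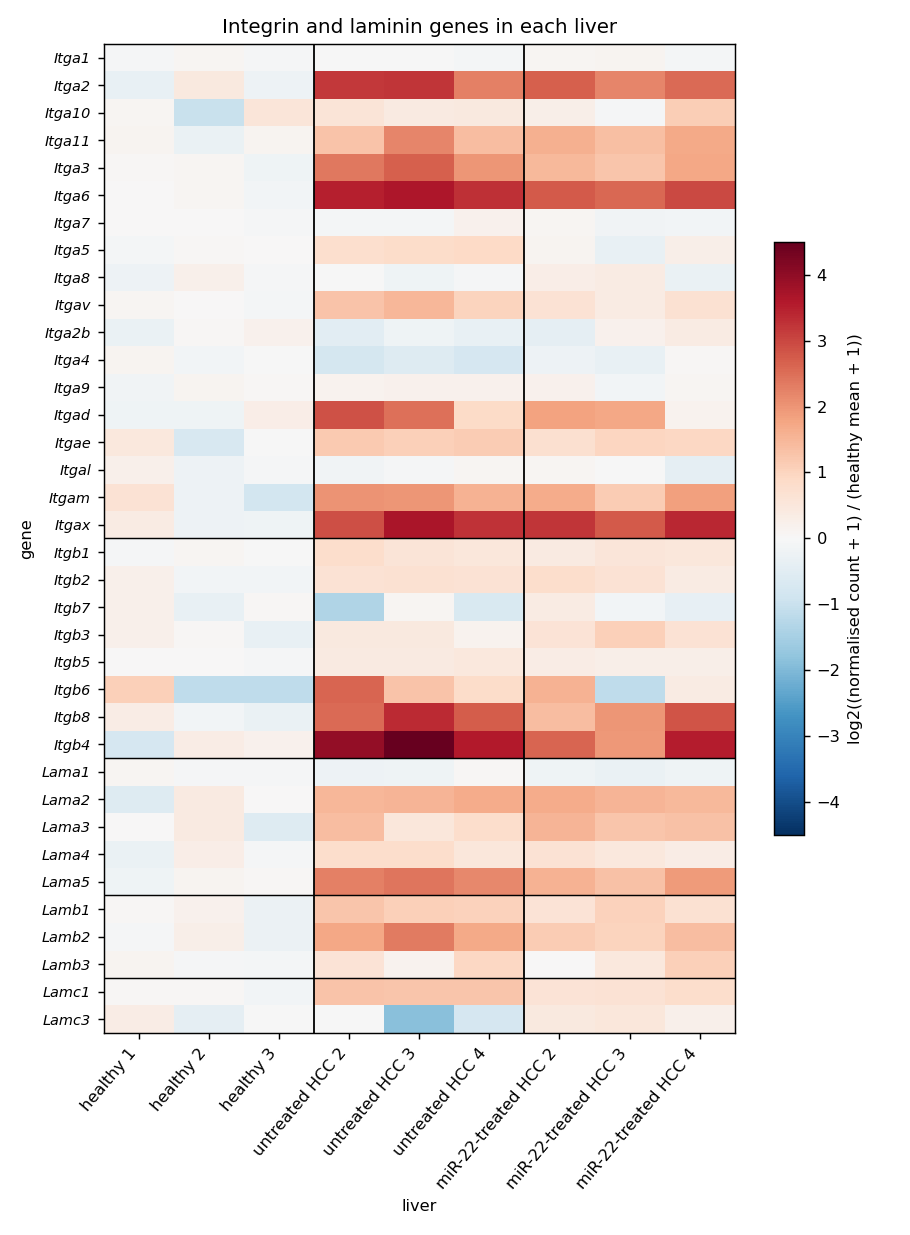
Each row is 1 of 36 genes and each column 1 of the 9 livers; color gives log2 of the normalised read count plus 1 over the healthy mean plus 1, and lines separate gene families and groups. Itgb4, Itga6, Itgax, Itga2 and Itgb8 are red in all 6 tumor livers, and Itga1, Itga7 and Itga9 stay near white throughout.

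In untreated HCC against healthy liver, most members rose. Of the 37 genes, 35 had enough reads to be tested, and 21 of them were higher and 1 was lower where a call asks for an adjusted p under 0.05 and a fold over 1.5. Over all 15717 genes tested, 22.7% were higher and 18.1% lower by the same rule. The median log2 fold change was 0.83 over the members tested and 0.01 over all genes tested. Laminin genes made up 8 of the 21, with 8 of 11 higher, and integrins 13, with 13 of 24 higher. By normalised counts, 25 of the 35 members did not overlap between these groups, where 65.3% of all genes tested did not. Values below are TMM-normalised read counts unless named raw, listed by liver number (1, 2 and 3 for healthy livers, 2, 3 and 4 in both tumor groups). Every adjusted p comes from edgeR's quasi-likelihood test with Benjamini-Hochberg adjustment over all genes tested.

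**Figure D2:**
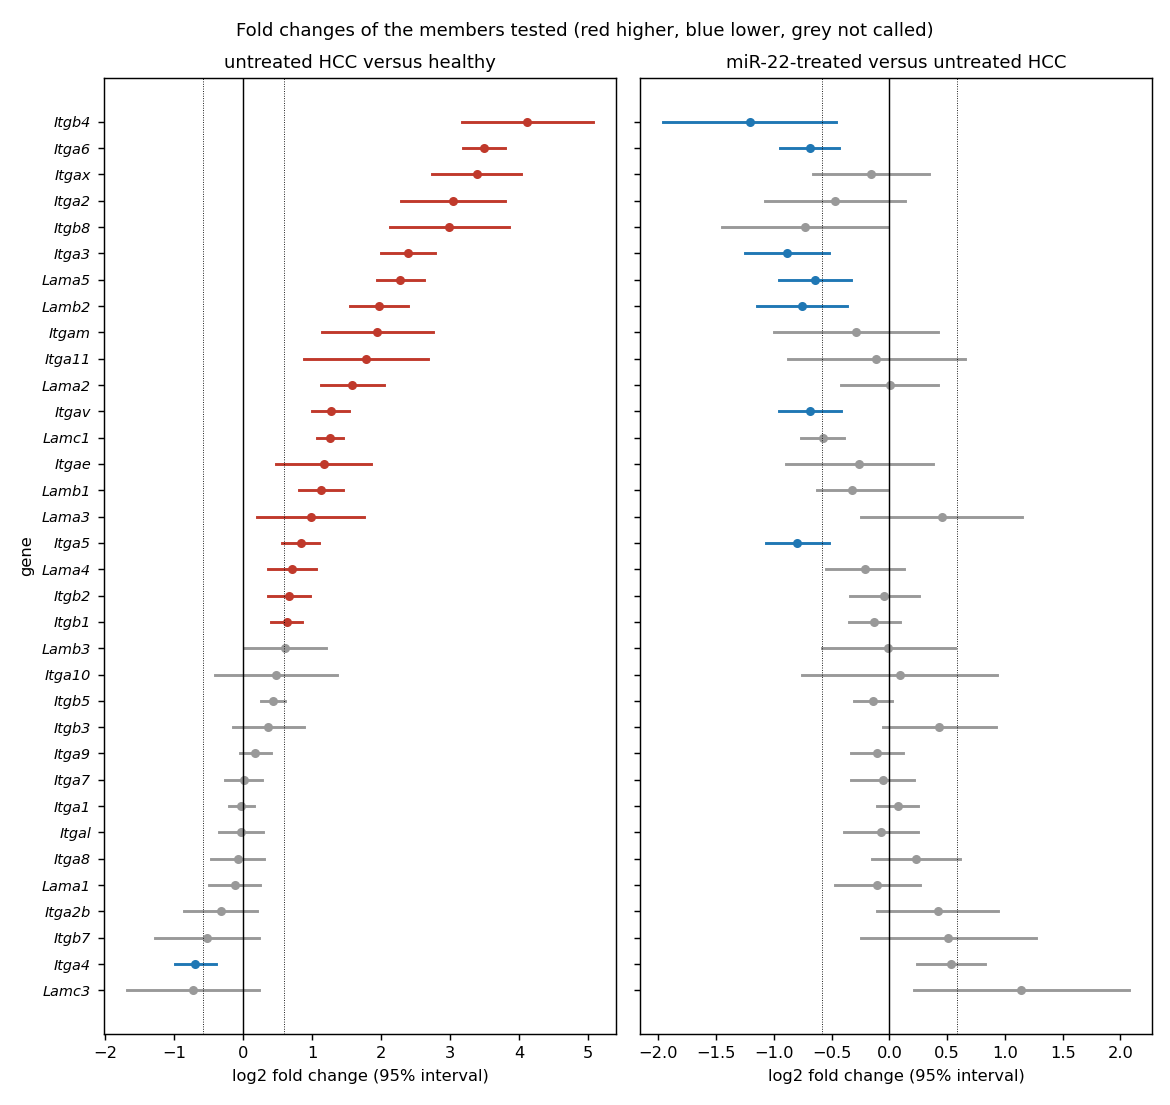
Points are log2 fold changes of 34 members tested with 95% confidence intervals, for untreated HCC against healthy liver on the left and for miR-22-treated against untreated HCC on the right (the scales differ); dotted lines mark a fold of 1.5. On the left 20 members are red (higher) and 1 is blue (lower), and on the right 7 are blue and none is red.

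Among laminin genes, α3 and β3 chains belong to the laminin that anchors stratified and ductal epithelia. Lama3, the α3 chain, had 18.3, 24.4 and 11.7 in healthy livers, 49.1, 26.1 and 31.9 in untreated HCC and 54.4, 44.5 and 47.1 in miR-22-treated HCC, a rise in untreated HCC of 1.97-fold (log2 fold change 0.98 ± 0.36 (SE), adjusted p = 0.0326) from few reads. That call was lost without healthy liver 1 or 3 or untreated HCC liver 2, and also with a test against a fold of 1.5 and with the replicate block. Lamb3, the β3 chain, had 92.7, 80.7 and 78.9 in healthy livers and 128, 93.8 and 162 in untreated HCC and was not called (log2 fold change 0.61 ± 0.27 (SE), adjusted p = 0.0742), although the groups did not overlap. It was called higher under 5 of 19 alternatives, namely with no filter, with only the 2 groups compared, and without untreated HCC liver 3 or treated liver 2 or 4.

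Chains of the more common laminins rose as well. Lama5, the α5 chain of epithelial and endothelial basement membranes, had 119.5, 147 and 139.6 in healthy livers, 647, 722 and 603 in untreated HCC and 398, 341 and 518 in miR-22-treated HCC, and the 3 groups were in separate ranges. In untreated HCC it was 4.85-fold higher (log2 fold change 2.28 ± 0.16 (SE), adjusted p = 2.1e-07). Lamb2, the β2 chain, had 173, 214 and 147 in healthy livers, 598, 901 and 583 in untreated HCC and 397, 359 and 473 in miR-22-treated HCC. It rose 3.90-fold (log2 fold change 1.96 ± 0.19 (SE), adjusted p = 2.9e-06), and untreated HCC liver 3 stood above the others of its group. Lamc1, the γ1 chain found in most laminins, had 640.3, 648 and 571 in healthy livers, 1519, 1459 and 1468 in untreated HCC and 939.9, 965 and 1074 in miR-22-treated HCC, with little spread within groups and a 2.39-fold rise (log2 fold change 1.26 ± 0.09 (SE), adjusted p = 1.9e-07). Lamb1, the β1 chain, had 217, 238 and 177 in healthy livers, 505, 442 and 432 in untreated HCC and 325, 436 and 343 in miR-22-treated HCC. Its healthy livers lay below all tumor livers, and it rose 2.18-fold (log2 fold change 1.13 ± 0.15 (SE), adjusted p = 2.9e-05).

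Of the remaining α chains, Lama2, a chain of muscle, nerve and stromal laminins, had 41.5, 83.1 and 62.9 in healthy livers, 176, 181 and 203 in untreated HCC and 202, 184 and 175 in miR-22-treated HCC. Both tumor groups lay above healthy livers and overlapped each other, and in untreated HCC it was 2.98-fold higher (log2 fold change 1.58 ± 0.21 (SE), adjusted p = 3.8e-05). Lama4, the α4 chain of vessel walls, had 146, 222 and 177 in healthy livers, 312, 318 and 261 in untreated HCC and 283, 255 and 232 in miR-22-treated HCC. Its rise of 1.63-fold (log2 fold change 0.71 ± 0.16 (SE), adjusted p = 0.00219) was no longer called without healthy liver 1. Lama1, an α chain best known from the early embryo, had 113, 104 and 102 in healthy livers and 90.0, 92.1 and 110.2 in untreated HCC and was not called (log2 fold change -0.13, 95% interval -0.49 to 0.24). Lamc3, the γ3 chain, had 31.7, 18.3 and 24.5 in healthy livers and 24.5, 6.08 and 14.5 in untreated HCC and was not called either (log2 fold change -0.73, interval -1.69 to 0.23).

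Levels per kilobase of transcript allow the chains to be set beside each other. In healthy livers Lama4 made up 49.1% ± 2.74 (SD, n = 3) of the summed α chain level per kilobase and Lama5 19.5% ± 1.28. In untreated HCC the order turned, with Lama5 at 41.3% ± 1.63 and Lama4 at 35.3% ± 2.06, and all 3 tumor livers lay apart from all healthy livers in both shares. In miR-22-treated HCC Lama5 was at 32.6% ± 5.76 and Lama4 at 38.0% ± 4.14; liver 4 had an Lama5 share of 39.2%, beside 29.9% and 28.8% in livers 2 and 3. Among β chains Lamb2 held 37.9% ± 2.34 in healthy livers and 54.1% ± 7.90 in untreated HCC, and Lamb1 43.7% ± 0.546 and 35.5% ± 5.07. The summed level per kilobase was 61.0 ± 9.46 and 83.0 ± 11.5 for α and β chains in healthy livers and 139 ± 7.62 and 225 ± 24.3 in untreated HCC. These shares are given without a test, and they assume that each gene's reads came from its canonical transcript.

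**Figure D3:**
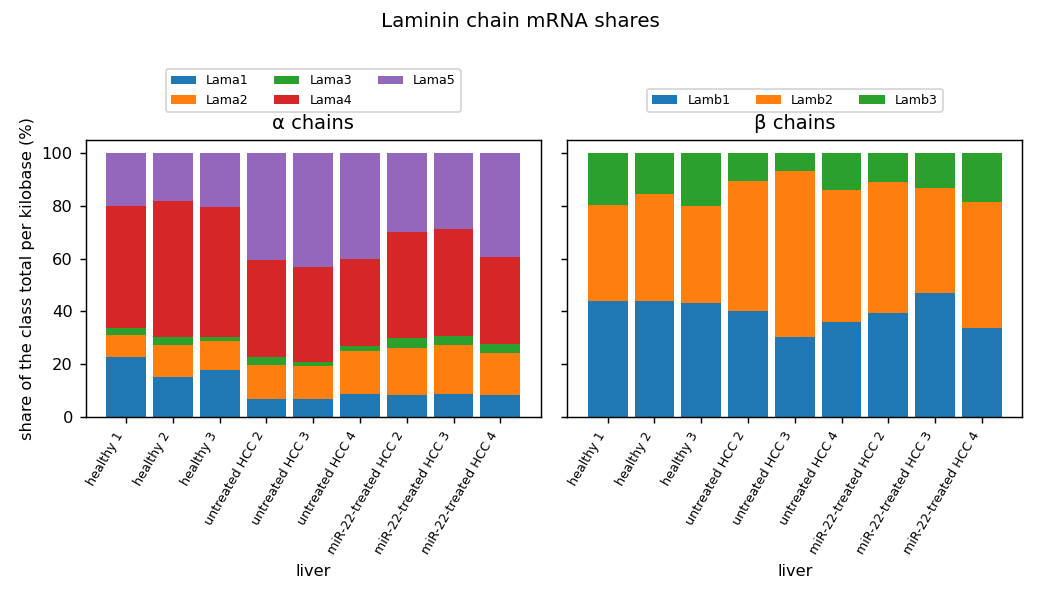
Stacked bars give the share (%) of each laminin gene in the summed level per kilobase of its chain class, 1 bar per liver, for α and β chains. Lama5 takes a larger part of the α chains than Lama4 in each untreated HCC liver and in treated liver 4.

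Of the laminin-binding α chains Itga6 and Itga3 rose and Itga7 was not called, and the β4 chain that pairs with α6 rose. Itga6, the α6 chain that pairs with β1 or β4, had 102, 108 and 91.7 in healthy livers, 1147, 1254 and 1002 in untreated HCC and 686, 614 and 805 in miR-22-treated HCC, in 3 separate ranges, and its 11.3-fold rise had the smallest adjusted p of any member (log2 fold change 3.50 ± 0.14 (SE), adjusted p = 4.8e-09). Itgb4, the β4 chain, which pairs only with α6 and builds hemidesmosomes, had 13.4, 29.3 and 26.6 in healthy livers, 369, 565 and 286 in untreated HCC and 148, 91.6 and 281 in miR-22-treated HCC. The rise was 17.4-fold (log2 fold change 4.12 ± 0.44 (SE), adjusted p = 5.7e-06), the largest among members, and the spread within both tumor groups was wide. Reads of Itgb4 and of Galk1, which runs the other way through 17.2% of its exonic bases, cannot be told apart there; Galk1 itself had 681 to 777 counts in healthy livers and 991 to 1425 in untreated HCC. Itga3, the α3 chain, had 239, 247 and 203 in healthy livers, 1183, 1495 and 916 in untreated HCC and 626, 544 and 763 in miR-22-treated HCC, and rose 5.22-fold (log2 fold change 2.38 ± 0.18 (SE), adjusted p = 3.9e-07). Itga7, the laminin-binding α chain of muscle, had 268, 268 and 253 in healthy livers and 245, 247 and 298 in untreated HCC and differed by 0.00 on the log2 scale, with an interval of -0.27 to 0.28. Per kilobase, Itga7 made up 48.2% ± 1.63 of the 3 laminin-binding α chains in healthy livers and 11.7% ± 2.96 in untreated HCC, and Itga6 17.1% ± 0.333 and 45.8% ± 1.58.

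Cell type markers moved at the same time. Bile duct cells make both laminin and integrin α6β4. Of 6 ductal markers tested, 5 rose in untreated HCC, and the list's summed normalised count was 487 to 556, 2549 to 4375 and 1182 to 1891 in healthy, untreated HCC and treated HCC livers. Sox9, a factor of ductal and progenitor cells, changed by 4.84 ± 0.30, adjusted p = 8.3e-08 (log2 fold change ± SE). All 10 hepatocyte markers fell, with sums of 2594145 to 2677000.4, 992134 to 1266025 and 1537386 to 1928428 in healthy, untreated HCC and treated HCC livers, among them Alb (-1.14) and Apoa1 (-1.06). Of 11 markers of stellate cells and myofibroblasts 7 rose and 2 fell, with sums of 7384 to 8769, 20334 to 23563 and 16036 to 18915 in healthy, untreated HCC and treated HCC livers; Col3a1 changed by 3.21 and Dcn by -0.61. Of 10 endothelial markers 1 rose and 5 fell, with sums of 8549.6 to 10559, 5357 to 6833 and 7128 to 9088 in healthy, untreated HCC and treated HCC livers, and Stab2 and Kdr changed by -0.77 and -0.998. The part of these cell types in the laminin and laminin receptor values was not tested.

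Among integrin α chains that bind RGD proteins, Itgav and Itga5 rose. Itgav, the αv chain, had 1085, 1030.5 and 961 in healthy livers, 2468, 2873 and 2062 in untreated HCC and 1611, 1334 and 1651 in miR-22-treated HCC, with a 2.40-fold rise (log2 fold change 1.27 ± 0.12 (SE), adjusted p = 3.1e-06). Itga5, the fibronectin receptor chain, had 666, 737 and 726 in healthy livers, 1200.1, 1270.1 and 1323 in untreated HCC and 769, 567 and 843 in miR-22-treated HCC. It rose 1.78-fold (log2 fold change 0.83 ± 0.12 (SE), adjusted p = 9.9e-05) with the untreated HCC livers close together, and treated livers overlapped healthy ones. Itga8, known from stellate and other mesenchymal cells, had 194, 266 and 222 in healthy livers and 225, 199.8 and 221 in untreated HCC and was not called (interval -0.46 to 0.30). Their partners differed: Itgb8, which with αv activates latent TGFβ, had 21.95, 15.9 and 13.9 in healthy livers, 105, 186 and 120.3 in untreated HCC and 46.6, 70.5 and 127 in miR-22-treated HCC. It was 7.93-fold higher in untreated HCC (log2 fold change 2.99 ± 0.40 (SE), adjusted p = 3.7e-05), and treated liver 4 overlapped untreated HCC. Itgb5 had 1832, 1802 and 1747 in healthy livers and 2364, 2373 and 2521 in untreated HCC, which passed the p threshold but not the fold of 1.5 (log2 fold change 0.43 ± 0.08 (SE), adjusted p = 0.0004). Itgb3, the β chain of platelets, bone-resorbing and vessel cells, had 59.8, 52.6 and 39.4 in healthy livers, 68.2, 69.5 and 57.3 in untreated HCC and 77.7, 106 and 79.4 in miR-22-treated HCC and was not called in this comparison (adjusted p = 0.209). Itgb6, an epithelial partner of αv, had 3, 0 and 0 raw counts in healthy livers, 14, 5 and 4 in untreated and 5, 0 and 2 in treated HCC, too few to be tested.

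Itgb1, the β chain shared by most matrix integrins, was the most abundant member, with 4236, 4649 and 4349 in healthy livers, 7638, 6581 and 6267 in untreated HCC and 5904, 6448 and 6344 in miR-22-treated HCC. It rose 1.55-fold (log2 fold change 0.63 ± 0.10 (SE), adjusted p = 0.0002), a call lost without untreated HCC liver 2, the highest of its group. Per kilobase it made up 57.8% ± 1.82 of all β chains in healthy livers, 59.1% ± 3.15 in untreated and 59.8% ± 1.79 in treated HCC, ranges that overlapped. Itgb4, for all its rise, reached 2.84% ± 1.00 in untreated HCC.

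The collagen-binding α chains split. Itga2, the collagen receptor of epithelia and platelets, had 9.76, 17.1 and 10.7 in healthy livers, 122, 126 and 64.5 in untreated HCC and 85.4, 60.6 and 77.5 in miR-22-treated HCC, an 8.26-fold rise (log2 fold change 3.05 ± 0.35 (SE), adjusted p = 1e-05) with no overlap between healthy and tumor livers. Itga11, the collagen receptor of fibroblasts, had 8.54, 6.11 and 8.53 in healthy livers, 20.002, 39.1 and 21.7 in untreated HCC and 25.5, 21.0 and 27.7 in miR-22-treated HCC, and rose 3.43-fold from few reads (log2 fold change 1.78 ± 0.41 (SE), adjusted p = 0.00261). Itga1, by level the main collagen receptor of the liver, had 1332, 1466 and 1336 in healthy livers and 1377, 1377 and 1295 in untreated HCC, and its log2 fold change was -0.03 with an interval of -0.21 to 0.15. Itga10, known from cartilage, had 26.8, 12.2 and 37.3 in healthy livers and 38.2, 33.9 and 34.8 in untreated HCC and was not called (interval -0.41 to 1.35). Itga1 is overlapped on 19.6% of its exonic bases by Mocs2 on the other strand and Itga10 on 34.5% by Gm42957 on its own strand, and non-directional reads there cannot be assigned with certainty. Itga2 and Itga1 lie 21.0 kb apart on chromosome 13, on the same strand, with Itga1 holding 93.7% ± 1.86 of the collagen-binding α chains per kilobase in healthy livers and 82.0% ± 2.94 in untreated HCC.

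Leukocyte integrins did not move as a block. Itgax, the αX chain of dendritic cells and some macrophages, had 20.7, 13.4 and 13.9 in healthy livers, 126, 218 and 159 in untreated HCC and 159, 114 and 177 in miR-22-treated HCC, a 10.5-fold rise (log2 fold change 3.39 ± 0.30 (SE), adjusted p = 1.2e-06) in which all tumor livers stood apart from healthy livers. Itgam, the αM chain of neutrophils and monocytes, had 25.6, 13.4 and 8.53 in healthy livers, 68.2, 66.0 and 48.6 in untreated HCC and 53.3, 35.9 and 59.1 in miR-22-treated HCC, a 3.85-fold rise (log2 fold change 1.95 ± 0.37 (SE), adjusted p = 0.00068). Its exonic bases are shared to 92.2% with the read-through gene Gm49368, which held 0 to 4 raw counts in each library, so some reads may have been split between them. Itgae, the αE chain of tissue T cells and some dendritic cells, had 29.3, 12.2 and 20.3 in healthy livers, 48.2, 44.3 and 46.4 in untreated HCC and 34.4, 40.8 and 40.6 in miR-22-treated HCC, and rose 2.24-fold (log2 fold change 1.16 ± 0.32 (SE), adjusted p = 0.00696). Itgb2, the β chain that αL, αM, αX and αD share, had 222, 176 and 175 in healthy livers, 300.0, 305 and 304 in untreated HCC and 333, 303 and 246 in miR-22-treated HCC, and rose 1.59-fold (log2 fold change 0.67 ± 0.14 (SE), adjusted p = 0.00143).

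No other leukocyte chain was called higher. Itgal, the αL chain of lymphocytes and by count the leading leukocyte α chain, had 483, 353 and 395 in healthy livers and 371, 399.6 and 434 in untreated HCC, with an interval of -0.35 to 0.29 on the log2 scale. Itgb7, the β chain that gut-homing lymphocytes pair with α4 or αE, had 75.6, 50.1 and 66.1 in healthy livers and 24.5, 68.6 and 39.9 in untreated HCC and was not called (-0.53, adjusted p = 0.219). Itga4, the α4 chain of lymphocytes and monocytes, was the only member called lower, with 313, 265 and 284 in healthy livers, 167, 193 and 172 in untreated HCC and 244, 228 and 296 in miR-22-treated HCC: it fell in untreated HCC to values under every healthy liver (log2 fold change -0.70 ± 0.14 (SE), adjusted p = 0.00076). Cerkl, on the other strand, covers 35.0% of its exonic bases and had 104 to 128 raw counts in healthy livers and 35 to 64 in untreated HCC. Itga9, a related α chain, had 555, 669 and 637 in healthy livers and 688, 702 and 707 in untreated HCC and was not called (adjusted p = 0.173). Itgad held 1, 1 and 2 raw counts in healthy livers, 19, 15 and 5 in untreated and 7, 6 and 2 in treated HCC and was not tested. Itga2b, the platelet α chain, had 61.0, 78.2 and 87.4 in healthy livers and 54.6, 66.0 and 60.2 in untreated HCC and was not called (interval -0.86 to 0.20).

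Leukocyte markers rose as well: 7 of 8 pan-leukocyte genes were higher in untreated HCC, and their sum was 1105 to 1403, 2191 to 2248 and 1925 to 2326 in healthy, untreated HCC and treated HCC livers. Ptprc changed by 0.68 ± 0.09, adjusted p = 4.9e-05 and Laptm5 by 0.92 ± 0.13, adjusted p = 7.7e-05. Integrins are set here against that sum, in which none of them is counted. Itgb2 was at 15.8, 15.9 and 14.4% of it in healthy livers, 13.6, 13.6 and 13.9% in untreated HCC and 14.3, 15.1 and 12.8% in miR-22-treated HCC. Itgax was at 1.48, 1.22 and 1.14% in healthy livers, 5.71, 9.70 and 7.28% in untreated HCC and 6.82, 5.68 and 9.20% in miR-22-treated HCC, and each tumor liver was above each healthy liver. Itgal was at 34.4, 32.0 and 32.6% in healthy livers, 16.8, 17.8 and 19.8% in untreated HCC and 18.6, 20.4 and 15.9% in miR-22-treated HCC, and Itga4 at 22.4, 24.0 and 23.4% in healthy livers, 7.56, 8.58 and 7.84% in untreated HCC and 10.5, 11.4 and 15.4% in miR-22-treated HCC, with each tumor liver below each healthy liver in both. These ratios are descriptions without a test.

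**Figure D4:**
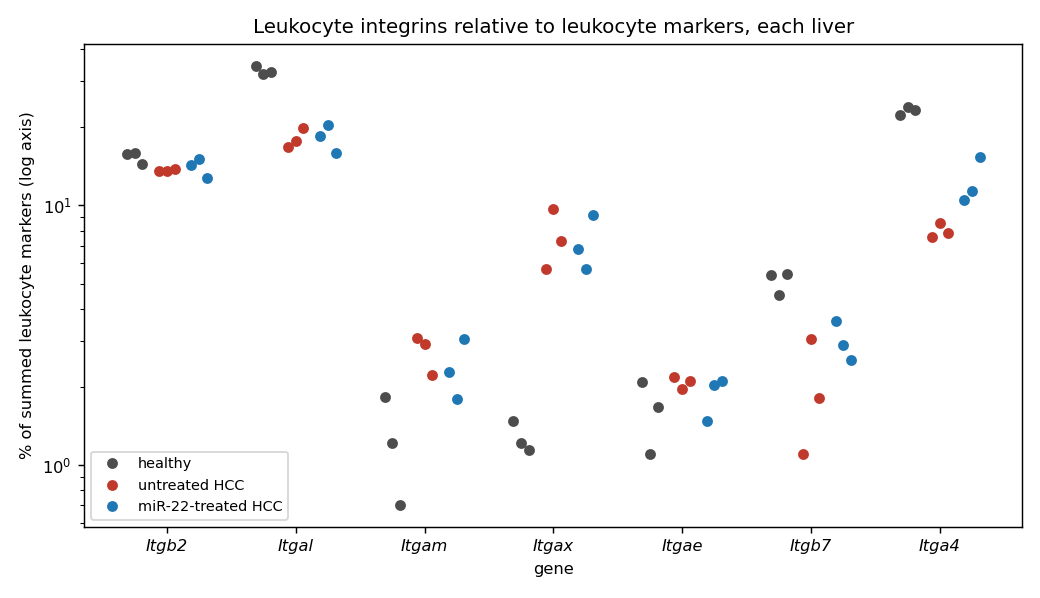
Points are single livers, and the log axis gives the normalised count of each integrin as a percentage of the summed normalised counts of 8 pan-leukocyte markers. Itgax is higher in all 6 tumor livers than in healthy livers, Itgal and Itga4 are lower, and Itgb2 lies between 12.8% and 15.9% in all 9 livers.

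Markers of single leukocyte classes varied. All 5 neutrophil markers tested of 10 listed rose, with sums of 36.7 to 89.0, 348 to 472 and 350.1 to 530.4 in healthy, untreated HCC and treated HCC livers. Csf3r and S100a9 changed by 2.42 and 3.51, and Ly6g was at or under 3 raw counts in every library. Of 12 markers of macrophages or Kupffer cells 2 rose and 2 fell, and the sums were 9372 to 11988, 10021 to 11473 and 11890.3 to 12648 in healthy, untreated HCC and treated HCC livers, with Clec4f at -0.41 and Cd5l at 0.04, neither called. Of 7 dendritic cell markers 2 rose and 1 fell, with a median log2 fold change of 0.17. Their sums were 276 to 319, 235 to 267 and 302 to 366 in healthy, untreated HCC and treated HCC livers. Of the 2 most abundant, Zbtb46 fell (-0.59) and Clec9a was not called (-0.64). In treated HCC against healthy liver, 4 of the 7 were higher and none was lower (median 1.30). T or NK cell markers gave 1 higher and 1 lower of 9 tested (sums of 153 to 212, 172 to 204 and 182 to 210.4 in healthy, untreated HCC and treated HCC livers), with Cd4 at 0.72 and Cd3g at 0.42, the second not called. B or plasma cell markers gave 1 higher and 1 lower of 6 (sums of 55.4 to 141, 105 to 195 and 102 to 169.5 in healthy, untreated HCC and treated HCC livers), with Jchain at 1.74 and Cd79b at -0.08, the second not called. Of 3 platelet markers tested of 8, 2 rose and 1 fell (sums of 30.9 to 37.9, 42.8 to 57.3 and 51.0 to 73.8 in healthy, untreated HCC and treated HCC livers), Pf4 by 3.11 and Gp1ba by -1.72, and Gp1bb was at or under 3 raw counts. The part of these cells in the leukocyte integrin values was not tested.

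With miR-22, 8 of the 35 members tested fell against untreated HCC and none rose, where 5.47% of all genes tested were lower and 8.32% higher. Those described here are Itgb4, Itga3, Itga5, Lamb2, Itga6, Itgav and Lama5, and this comparison shares the untreated HCC livers with the one above. The median log2 fold change was -0.13 over the members and 0.00 over all genes tested, and 14 of the 35 members did not overlap between the groups, about the same share as the 39.3% over all genes tested. Beside the count of 0 higher by edgeR, 2 members, Itga4 and Lamc3, had an unadjusted p under 0.05 with higher means, and DESeq2 and limma called 0 as well.

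**Figure D5:**
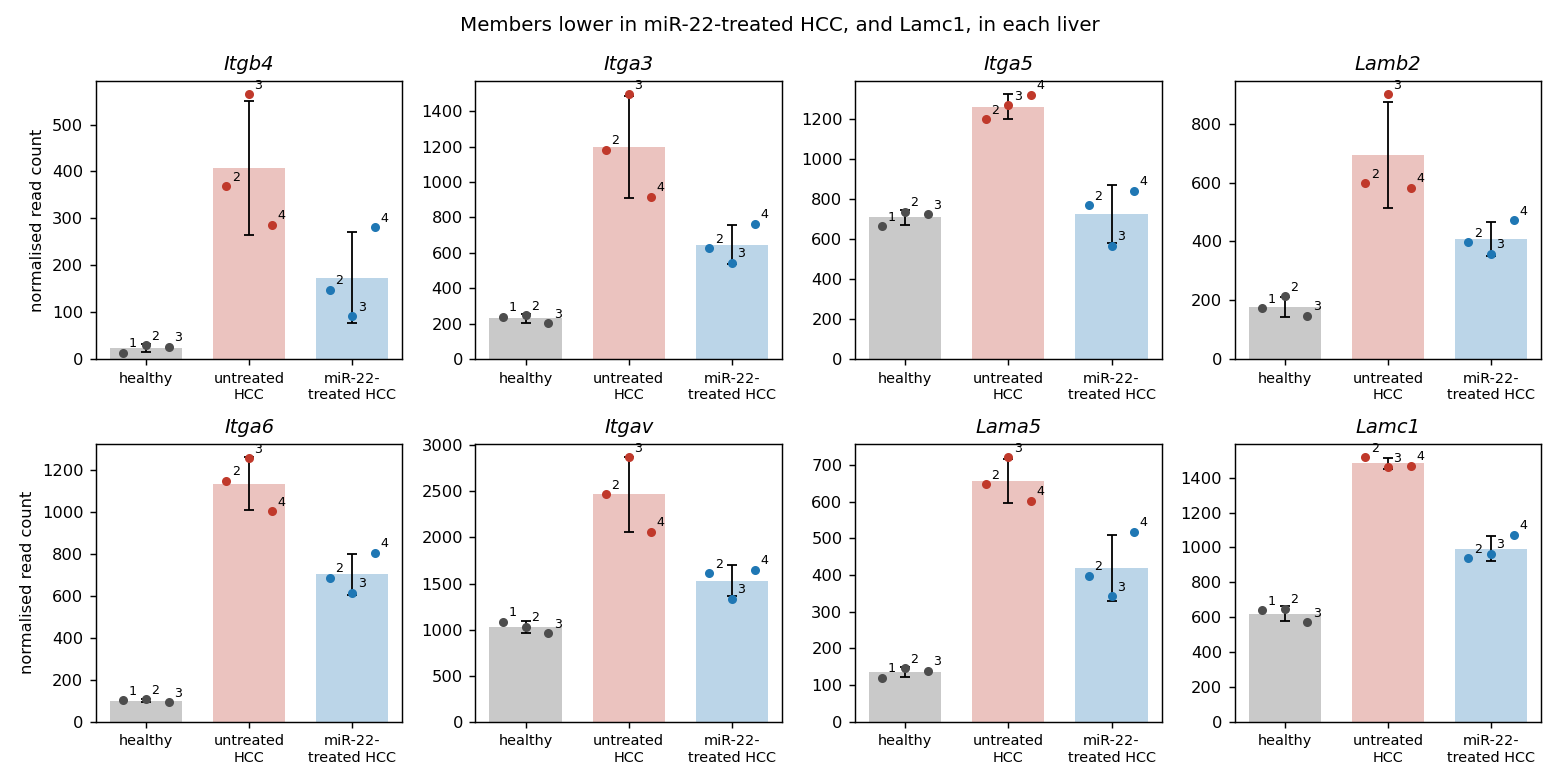
Bars are group means of normalised read counts with SD over 3 livers, and points are single livers with their number, for 7 members lower in miR-22-treated HCC and for Lamc1. In each of the 8 panels all treated livers lie below all untreated HCC livers, and treated liver 4 is the highest treated liver.

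Chains of laminin receptors, laminin chains and RGD-binding α chains were among them. Itgb4 was 2.31-fold lower (log2 fold change -1.21 ± 0.34 (SE), adjusted p = 0.0237), but treated liver 4 at 281 lay just under untreated HCC liver 4 at 286. Without treated liver 4 the log2 fold change of Itgb4 was -1.76 (adjusted p = 0.00147), and the call was lost without untreated HCC liver 2 or 3 or treated liver 2 or 3. Itga6 was 1.61-fold lower (log2 fold change -0.69 ± 0.12 (SE), adjusted p = 0.0016) and Itga3 1.85-fold lower (log2 fold change -0.89 ± 0.17 (SE), adjusted p = 0.00283), the laminin-binding α chains that rose in untreated HCC. Lamb2 was 1.69-fold lower (log2 fold change -0.76 ± 0.18 (SE), adjusted p = 0.0099) and Lama5 1.56-fold lower (log2 fold change -0.64 ± 0.15 (SE), adjusted p = 0.00737). Itgav was 1.61-fold lower (log2 fold change -0.69 ± 0.12 (SE), adjusted p = 0.00211) and Itga5 1.74-fold lower (log2 fold change -0.80 ± 0.12 (SE), adjusted p = 0.00101). Of these 7, only Itga5 had a miR-22 seed match, the one printed above.

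Lamc1, with 2 seed matches, was 1.49-fold lower, a value just under the fold threshold (log2 fold change -0.58 ± 0.08 (SE), adjusted p = 0.00079), and it was called under DESeq2's Wald test and both other scalings. Itgb8, with 1 match, had a log2 fold change of -0.73 (adjusted p = 0.131) and was called with no filter on low counts and with treated liver 4 left out, where it was -1.23 (adjusted p = 0.012). The other members with a match were not called, among them Itga1 (0.07), Lama3 (0.45) and Lamb3 (-0.01). The median log2 fold change was 0.03 over the 10 members with a match and -0.16 over the 25 tested without.

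Leukocyte and stromal chains were not among the 8. Treated against untreated, the log2 fold change was -0.16 (interval -0.66 to 0.34) for Itgax, -0.29 (-0.997 to 0.42) for Itgam and -0.04 (-0.34 to 0.25) for Itgb2, none of them called. Lama2 and Itga11 were at 0.00 (-0.42 to 0.42) and -0.11 (-0.88 to 0.66), and the signs of both turned under other settings. Itgb1 was at -0.13 (-0.35 to 0.09) and Lamb1 at -0.32 (-0.63 to -0.02), with an adjusted p of 0.118 for Lamb1. Itga4 was higher in each treated liver than in each untreated HCC liver, at 0.53 and an adjusted p of 0.0138, short of the fold of 1.5. Lamc3 likewise did not overlap, at 1.14 and an adjusted p of 0.0733, with 6.1 to 35.9 normalised counts in tumor livers. Cerkl, which shares exonic bases with Itga4, had 35 to 64 raw counts in untreated HCC and 65 to 102 in treated HCC. The part of Cerkl reads in the Itga4 value was not tested.

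These 8 calls were not equally firm. Against a null of 1.5-fold, edgeR's glmTreat called 1 of them, and without untreated HCC liver 3, which was the highest of its group for 7 of the 8, the count fell to 5, as Itgav, Itgb4, Lama5 and Lamb2 were lost and Lamc1 was gained. The Lama5 call was also lost without treated liver 3. Without treated liver 4 the count was 10. Within groups the 8 members shared an order: treated liver 4 was the highest for 8 of 8 and treated liver 3 the lowest for 7, and untreated HCC liver 4 was the lowest for 7. The ductal marker sum had that order too, 3298, 4375 and 2549 in untreated HCC and 1254, 1182 and 1891 in treated HCC, and the hepatocyte marker sum ran against it with 1067506, 992134 and 1266025 and 1746965, 1928428 and 1537386. Of the ductal markers tested 4 of 6 fell with miR-22 (Sox9 by -1.57 on the log2 scale), and 7 of 10 hepatocyte markers rose. The part of these cells in the 8 falls was not tested.

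Against healthy liver, 18 members were higher in miR-22-treated HCC and none was lower, beside 16.9% and 7.05% of all genes tested; by edgeR no member had a lower mean at an unadjusted p under 0.05, and DESeq2 and limma called 0 lower. By normalised counts 23 of the 35 did not overlap, where 48.8% of all genes tested did not. This comparison shares the healthy livers with the first and the treated livers with the second. For the members lower with miR-22, the values against healthy liver were as follows: Itga6 was higher, at 6.99-fold (2.81, adjusted p = 4.8e-08), and likewise Itgb4 at 7.52-fold, Lama5 at 3.10-fold, Itga3 at 2.82-fold and Lamb2 at 2.31-fold. Not called were Itga5, with 1.02-fold and an interval of -0.24 to 0.31 on the log2 scale, and Itgav, with 1.495-fold (adjusted p = 0.00308), just short of 1.5. Itgax, at 9.37-fold (3.23, adjusted p = 6.2e-06), Itga2 at 5.95-fold and Itgb8 at 4.77-fold were among the larger differences. Itgb3 was called higher at 1.74-fold (0.79, adjusted p = 0.0193), a call lost without healthy liver 3 or treated liver 3. The Itgae call (0.90, adjusted p = 0.0444) was lost under 12 of 19 alternatives.

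Genes that work with these subunits were counted from 5 lists, to be read against the 22.7% higher and 18.1% lower of all genes tested in untreated HCC and the 8.32% higher and 5.47% lower with miR-22. Of 22 basement membrane genes that join laminin, 14 rose and 3 fell in untreated HCC (median 1.59), and 9 fell with miR-22. Col4a1, a type IV collagen chain, changed by 3.13 ± 0.12, adjusted p = 4.8e-09 and then by -0.81 ± 0.11, adjusted p = 0.00067, Sparc, a collagen-binding matrix protein, by 3.33 and -0.86, and Col18a1, the source of endostatin, by -1.03 and 0.50, the last not called. Of 25 other integrin ligands tested of 29, 14 rose and 2 fell in untreated HCC, and 1 rose and 8 fell with miR-22. Their most abundant members are plasma proteins of hepatocytes: Fgb, a fibrinogen chain, fell by 0.69 in untreated HCC, and Fga (-0.54) and Fn1, fibronectin (0.04), were not called. Of 8 other laminin receptors 3 rose and 3 fell, and with miR-22 1 rose and 2 fell; Sdc4, a syndecan, changed by -1.68 and then by 1.52, Sdc1 by -0.61 and 0.22, the second not called, and Rpsa was not called in either (-0.10 and 0.14).

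The remaining lists hold partners inside the cell and within its membrane. Of 35 integrin activators and adhesion complex genes, 10 rose and 4 fell in untreated HCC (median 0.24), a share of rises near that of all genes, and 1 rose and 4 fell with miR-22. Actn4, an actin crosslinker, changed by 0.70 ± 0.09, adjusted p = 2e-05, Tln1, the talin that switches integrins on, by 0.21 ± 0.09, adjusted p = 0.0529, which was not called, and Tns1 by -0.67 ± 0.11, adjusted p = 0.00026. Of 9 tetraspanins that bind integrins 4 rose and 1 fell, and with miR-22 1 rose and 1 fell. Cd151, the tetraspanin partner of laminin-binding integrins, changed by 1.05 ± 0.09, adjusted p = 1.4e-06, whereas Cd81 (0.43) and Cd82 (-0.14) were not called.

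Some members neighbour each other. Itgam, Itgax and Itgad follow each other on the plus strand of chromosome 7 with gaps of 10.9 and 3.7 kb, and the first and second rose. Itga2 and Itga1, neighbours on chromosome 13, differed as described. Per kilobase, the most abundant members in healthy livers were Itgb1 at 880.3, Itgb5 at 539, Itga5 at 162 and Itgav at 139 normalised counts, and in untreated HCC Itgb1 at 1363, Itgb5 at 727, Itgav at 334, Itga5 at 289 and Itga6 at 257. Itga6 was among the 5 highest in untreated HCC, and ranked 18 among the 37 members in healthy livers.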

How the data were processed

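RNA sequencing of 9 livers was analyzed from the count table that the authors deposited: whole-number counts per gene, neither normalized nor filtered, with no row left without a gene. The authors read non-directional libraries as paired ends, checked them with FastQC 0.11.7, quantified them with Salmon (version not given in the sources used here) on GRCm39 and summed counts per gene with tximport; DESeq2 1.18 is named for their own tests. Salmon spreads reads that fit several transcripts, so members with overlapping genes are uncertain. A second deposited table holds the same counts divided by 1 factor per library and was not used.

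edgeR 4.0.16 in R 4.3.3 was used for the tests (TMM factors, the filterByExpr filter, 1 quasi-likelihood fit of 3 groups, two-sided, Benjamini-Hochberg over 15717 genes). A gene was called at an adjusted p under 0.05 and a fold over 1.5. SE is the log2 fold change over the root of F, intervals are 95%, and errors of counts are SD over 3 livers. A group whose libraries all held 3 counts or fewer was taken to be at the floor. Normalised counts are TMM-scaled to the mean effective library size, and levels per kilobase divide them by the canonical transcript length of GENCODE M39, in which all 37 members were found. The tests were checked on simulated counts. Alternatives were DESeq2 1.42.0, limma 3.58.1 (limma-trend, log2 with a pseudocount of 1), DESeq2 and upper-quartile factors, no filter, at least 10 counts in every library, no fold threshold, glmTreat, only the 2 groups compared, the replicate block and each liver left out.

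Members, gene lists and tests were chosen with earlier results of these data known. Values of every liver are given for members called in any comparison, the 3 most abundant tested genes are named from each of 5 lists of working partners, and the 2 most abundant from each of 11 marker lists. Some genes, 1 member among them, enter counts and sums but are not reported here by name or plotted. Figures were drawn with matplotlib 3.10.9 in Python 3.11.15.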

Additional observations from a re-analysis of the deposited data

How the results depend on the processing

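The counts of members called held within 1.5 times under most alternatives. With a test against a fold of 1.5 (glmTreat), the count lower in untreated HCC against healthy liver went from 1 to 0 and the count lower with miR-22 from 8 to 1, and with no fold threshold the count higher with miR-22 went from 0 to 1, which was Itga4. Leaving out 1 liver at a time gave 1 to 2 members lower in untreated HCC (Lamc3 was added without untreated HCC liver 2 and Itgb7 without liver 3), 0 to 1 higher with miR-22 (Lamc3 without untreated HCC liver 2, Itga4 without untreated HCC liver 3 or treated liver 3) and 5 to 10 lower with miR-22, the 5 without untreated HCC liver 3. The labels do not say whether replicate numbers pair the samples. The 3 correlations of deviations from group means between same-numbered tumor livers were -0.12, -0.12 and -0.23, and those between differently numbered ones ran from -0.02 to 0.13. Deviations sum to 0 within a group of 3, so these values cannot decide whether the livers were paired. In a fit with the replicate block the count lower with miR-22 was 4, of which 3 were among the 8, Itga5 and Itga6 included (Itga3, Itgav, Itgb4, Lama5 and Lamb2 were not called), and the count higher in untreated HCC was 20. In comparisons with healthy liver the block fit held only livers 2 and 3 of each group, so healthy liver 1 and tumor liver 4 were left out. Called values that it moved by over 1.5 times were the log2 fold changes of Itgb4 in treated HCC against healthy liver, from 2.91 to 2.05, and of Itgam in untreated HCC, from 1.95 to 2.63, and both calls held. Over all 1980 values of single members under an alternative, 1836 kept direction and side of the threshold, 53 lost a call, 35 gained one and 56 changed sign, all of the last in members not called. In these, the log2 fold change of untreated HCC against healthy liver was 0.0172 for Itga1 with upper-quartile factors and 0.016 with at least 10 counts in every library (-0.0633 to 0.0116 with a liver left out), -0.0028 for Itga7 by limma and -0.0662 with the replicate block (-0.0946 to 0.0527), -0.19 to 0.0433 for Itga8 with a liver left out, and 0.0157, 0.0147 and 0.0552 for Itgal with upper-quartile factors, at least 10 counts and the replicate block (-0.13 to 0.0914). For miR-22-treated against untreated HCC it was -0.0161 for Itga10 by limma (-0.35 to 0.30 with a liver left out). With a liver left out it ran from -0.28 to 0.25 for Itga11, -0.15 to 0.0398 for Itga7, -0.18 to 0.066 for Itgal, -0.33 to 0.0711 for Itgax, -0.15 to 0.071 for Itgb2 and -0.35 to 0.21 for Lamb3. For Lama2 it was -0.0236 with DESeq2 size factors, -0.0367 with upper-quartile factors, -0.0015 with no filter, -0.0142 with at least 10 counts, -0.0239 by DESeq2, -0.0075 with only the 2 groups and -0.0074 with the replicate block (-0.0596 to 0.0676). For miR-22-treated HCC against healthy liver the replicate block gave -0.24 for Itga2b (-0.0849 to 0.28 with a liver left out), -0.16 for Itga5 (-0.086 to 0.18), -0.0394 for Itga9 (-0.0239 to 0.14), 0.16 for Itgal (-0.21 to 0.0355) and 0.26 for Itgb7 (0.0117 with at least 10 counts, -0.27 to 0.15). For the 5 lists of partners, the counts higher in untreated HCC stayed within 1.5 times in all alternatives, whereas small counts did not: lower in untreated HCC, other ligands went from 2 to 1 without untreated HCC liver 3, to 0 by glmTreat and to 4 with no fold threshold, adhesion complex genes from 4 to 0 and 8 by the last 2, and tetraspanins from 1 to 0 by glmTreat. The basement membrane genes lower with miR-22 went from 9 to 5 without untreated HCC liver 3 or treated liver 3, to 4 with the replicate block and to 0 by glmTreat, other ligands from 8 to 4 with the block and 1 by glmTreat, and the 1 other ligand higher with miR-22 was not called under most alternatives. With a liver left out, with only the 2 groups compared and with the replicate block, fewer samples entered the fit. The part of pairing in the block fit was not tested, nor was the cause for the other alternatives. With 3 livers a group, members with few reads, such as Itga11, Lama3, Lamc3, Itgad and Itgb6, are limited by depth.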
